A study of Homo sapiens and Mus musculus with 36 samples.

Results

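Expression of 8 hepatocyte lineage transcription factor genes was followed in 10 comparisons between groups of HepG2 or Huh7 cells, both human lines derived from liver tumours. The genes were HNF4A, FOXA1, FOXA2, FOXA3, CEBPA, ONECUT1, NR1H4 and NR5A2. They were chosen by symbol, with earlier results of these data known, and all 8 were found among 26867 genes listed in at least 1 table.

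Hepatocyte identity is held by a small network of transcription factors that bind each other's genes as well as the genes of plasma proteins and metabolism. HNF4A, a nuclear receptor, is its central member. FOXA1, FOXA2 and FOXA3 are forkhead pioneer factors that can open chromatin, CEBPA encodes the basic leucine zipper factor C/EBP alpha, and ONECUT1 encodes the cut-homeodomain factor HNF6. NR1H4 encodes FXR, the bile acid receptor, and NR5A2 encodes LRH-1, a nuclear receptor of bile acid and cholesterol genes. EZH2 is the methyltransferase of the Polycomb complex PRC2, which places the repressive mark H3K27me3. SREBF2 encodes SREBP2, the sterol-regulated activator of cholesterol synthesis genes.

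On GRCh38 with GENCODE 29, HNF4A lies at chr20:44355700-44434596, FOXA1 at chr14:37589984-37596059, FOXA2 at chr20:22581005-22585455, FOXA3 at chr19:45863989-45873797 and CEBPA at chr19:33299934-33302564. ONECUT1 lies at chr15:52756989-52791078, NR1H4 at chr12:100473708-100564413 and NR5A2 at chr1:200027602-200177424. Counts were taken over whole genes, so the values do not separate transcripts of 1 gene. Exon bases shared with a neighbour were few for FOXA1 (16, with TTC6) and FOXA2 (70, with AL121722.1), and more for CEBPA, as described with its values.

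Sequences before the start sites are shown for HNF4A, which has an upstream and a downstream promoter whose transcripts the tables add together, and for NR5A2, the member whose level differed most between the cell lines. They are from RefSeq (GRCh38.p14, plus strand, 250 bases before a start, 5′ to 3′). Capitals mark the only matches to the motifs searched in the 9 windows of the 7 members that matched by symbol; FOXA2 was not matched. The HNF4A upstream window is chr20:44355449-44355698, the HNF4A downstream window chr20:44400989-44401238, and the printed NR5A2 window chr1:200042341-200042590. Another NR5A2 window, chr1:200027460-200027709, held no match and is not printed.
HNF4A upstream: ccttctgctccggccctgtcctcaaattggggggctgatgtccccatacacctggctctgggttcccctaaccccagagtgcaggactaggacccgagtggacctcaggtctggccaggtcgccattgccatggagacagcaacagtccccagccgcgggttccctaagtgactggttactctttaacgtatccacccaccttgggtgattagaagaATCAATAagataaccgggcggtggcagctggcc
HNF4A downstream: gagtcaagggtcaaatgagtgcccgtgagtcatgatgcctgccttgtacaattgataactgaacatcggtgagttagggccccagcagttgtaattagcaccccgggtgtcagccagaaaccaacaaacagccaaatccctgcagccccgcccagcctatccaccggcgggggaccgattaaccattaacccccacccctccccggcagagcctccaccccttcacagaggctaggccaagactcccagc
NR5A2: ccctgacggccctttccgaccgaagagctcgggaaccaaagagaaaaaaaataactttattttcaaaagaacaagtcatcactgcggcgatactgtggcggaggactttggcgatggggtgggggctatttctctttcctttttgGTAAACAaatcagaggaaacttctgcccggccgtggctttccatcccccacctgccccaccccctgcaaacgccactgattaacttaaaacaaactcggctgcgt
The HNF4A upstream window held the ONECUT letters ATCAATA from -33 to -27 of the start, a match present in 1.71% of 35116 RefSeq windows of 300 bases. The printed NR5A2 window held the forkhead letters TGTTTAC on the other strand, printed as GTAAACA, from -105 to -99. Of all windows, 3.42% held them. The 6 other motifs, searched on both strands like these, were not matched in the members' windows. These were CAAAGTCCA (HNF4, in 0.384% of all windows), TTGCNNCAA (C/EBP, 1.98%), TCAAGGTCA (LRH-1, 0.353%), TCACNCCAC (sterol response element, 1.13%), the HNF1 palindrome (0.0057%) and the FXR inverted repeat (0%). These are letter matches in short windows and not measured binding sites.

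The 28 libraries fell into 14 groups of 2. HepG2 cells received 5 uM of MS7126, C24, MS7126N1 or MS7126N2, or DMSO, for 48 h. MS7126 is named as a PROTAC against EZH2, a molecule built to have its target degraded, C24 as the matched inhibitor of the enzyme's SET domain, and MS7126N1 and MS7126N2 as analogs without PROTAC action. Huh7 cells received MS7126 at 5 uM, or DMSO; their own label gives 24 h, while a label of other samples gives 48 h. The hairpin groups were infected with pLKO.1-puro lentivirus and selected with puromycin. In both lines 1 hairpin was aimed at EZH2, and in HepG2 another 3, numbered #664, #665 and #667, at SREBF2. Their controls, called shControl, are described as an empty vector in one label and as a scramble in another. All 4 HepG2 compounds were compared with 1 pair of DMSO libraries, and all 4 HepG2 hairpin groups with 1 pair of shControl libraries. No label states whether paired libraries were grown as separate cultures; the spread behind every p-value is that between libraries and may be technical.

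Values per library were analysed for Huh7 shEZH2, where the 4 libraries held 10106193 to 11954322 estimated counts. The other 9 comparisons were read from the authors' deposited table of each, which gives a log2 fold change with a standard error (SE). Their mean normalized counts summed to between 16686567 and 40979203. A gene was called at an adjusted p under 0.05. All 8 hepatocyte markers (ALB, APOA1, APOB, TTR, SERPINA1, TF, FGB and AFP) stood at 10 CPM or more (CPM, normalized counts scaled to a common total) in every control, and at most 1 of 5 endothelial markers did. Over the MS7126 and EZH2 hairpin comparisons, summed biliary or progenitor markers lay between 831 and 1669 CPM, leukocyte markers between 109 and 2303, fibroblast or stellate markers between 10.5 and 98.8, and endothelial markers between 0.98 and 16.2. Most of the leukocyte sum was LYZ, the lysozyme gene, while PTPRC, the common leukocyte antigen gene, was at most 2.94 CPM where listed. The hepatocyte sums, and some of the others, are given beside their comparison. Of the rest, leukocyte markers went from 548 to 335 in HepG2 MS7126 and from 155 to 109 in Huh7 MS7126. Endothelial markers went from 16.2 to 8.7 in Huh7 MS7126, and fibroblast or stellate markers from 21.8 to 10.5 in the HepG2 libraries labelled shEZH2. Biliary or progenitor markers went from 1441 to 1669 in Huh7 shEZH2. Changes of level in bulk RNA cannot separate fewer cells of a kind from less RNA per cell.

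The targeted genes bear on the labels. EZH2 was 921 and 1000 normalized counts in the Huh7 controls and 148 and 156 in Huh7 shEZH2, and the groups did not overlap. In the HepG2 libraries labelled shEZH2, EZH2 was higher than control, at 0.90 on the log2 scale (SE 0.38, adjusted p = 0.0337) in the authors' deposited table. There, the SE of EZH2 was 4.1 times and that of SREBF2 6.23 times the median SE of genes within 10% of the same mean. The members' SEs in that table were 0.966 to 1.08 times their own such medians. SREBF2 fell in #664, #665 and #667, with log2 values of -1.58, -1.08 and -2.35 in the authors' deposited table of each. In #667 its SE was 3.76 times the median for its level and that of EZH2 1.46 times, against 0.954 to 1.18 times for the members. Those tables give no values per library, so libraries of these groups could not be left out. Beside the same 2 shControl libraries, the SE of EZH2 was 1.09 times its median in #664 and 1.01 times in #665. That of SREBF2 was 1.09 and 1.16 times there. The wide SEs thus came with the libraries labelled shEZH2 and not with the shared controls. Which of those 2 libraries stood apart in EZH2 or SREBF2, and by how much, could not be seen.

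The level of the members in control cells differed by cell line and gene. Group levels were rebuilt from the mean and fold change in the authors' deposited table and expressed as CPM per kb of annotated exon. In HepG2 DMSO, FOXA2 (36.8) and CEBPA (36.1) were highest, followed by FOXA1 (18.3), HNF4A (13.1), FOXA3 (9.04), NR1H4 (3.76), ONECUT1 (1.12) and NR5A2 (0.0973). Over the 4 tables that share those libraries, FOXA2 spanned 36.4 to 37.7, CEBPA 35.7 to 37 and NR1H4 2.79 to 4.12. These ranges come from rebuilding the same libraries in separate tables. They hold no spread between libraries, so they cannot show whether neighbours in the order were separated. The HepG2 shControl libraries had the same order, from FOXA2 (47.3, range 45.3 to 47.9) and CEBPA (43.6, range 41.8 to 44.2) through FOXA1 (34.6), HNF4A (16.5), FOXA3 (12.2), NR1H4 (4.82) and ONECUT1 (0.99) to NR5A2 (0.0748). Only the HepG2 hairpin tables list AC008738.3, an opposite-strand transcript that shares exon bases with CEBPA. It had a rebuilt 1517 to 2032 normalized counts in these controls, beside 3488 to 4670 for CEBPA. The place of CEBPA in the order, and its level across control groups, thus rest on unlike annotation.

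In the Huh7 control hairpin libraries, the order on the same per-kb scale began with CEBPA at 202 and 188. HNF4A stood at 47.6 and 48.6 and NR1H4 at 45.8 and 47.7, ranges that overlapped. FOXA2, FOXA3, FOXA1, NR5A2 and ONECUT1 followed in that order, from 38.4 (FOXA2) to 6.12 (ONECUT1) as rebuilt from the authors' deposited table. In Huh7 DMSO, CEBPA (222) was again highest, followed by HNF4A (56.6), FOXA2 (52.2), FOXA3 (33.3), FOXA1 (20.6), NR1H4 (20.1), ONECUT1 (14.4) and NR5A2 (13.1), with no spread between libraries to separate neighbours. NR5A2 was 99.2 CPM in Huh7 DMSO and 76.1 in Huh7 shControl, against 0.542 to 0.799 over the 8 HepG2 tables. Tables were normalized separately, so levels set across them are a description.

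**Figure D1:**
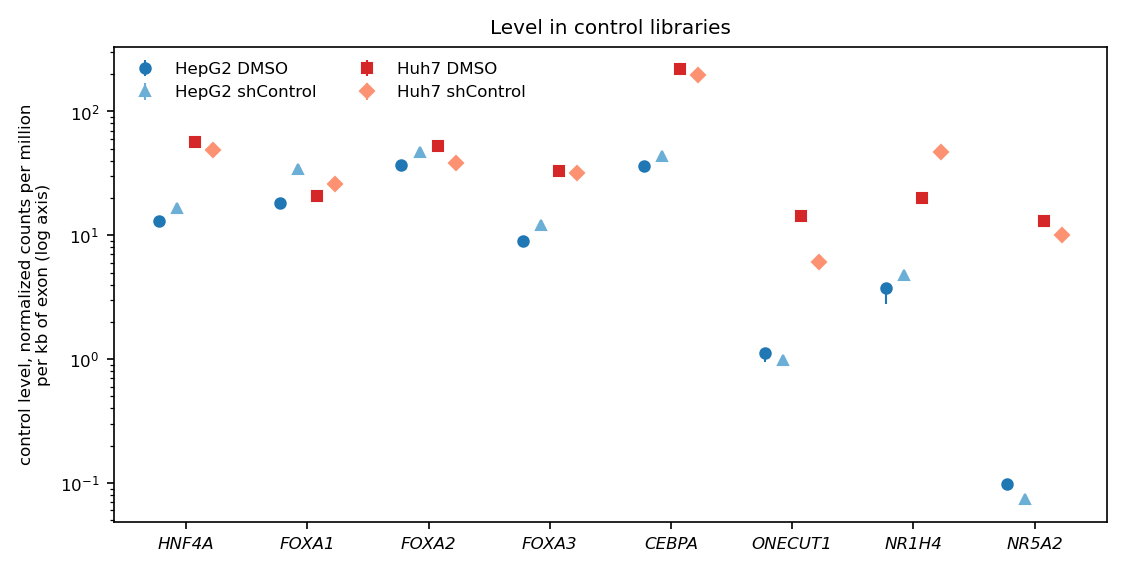
Level of each member in the 4 control groups, in CPM per kb of exon on a log axis; points are medians over the tables that share a control group and bars their range. NR5A2 lies near 0.1 in HepG2 and between 10.1 and 13.1 in Huh7, and CEBPA is highest in Huh7 at 197 and 222. The HepG2 shControl level of CEBPA comes from tables that also list the overlapping AC008738.3.

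MS7126 in HepG2 lowered FOXA1, ONECUT1 and NR1H4 and raised FOXA3, while HNF4A, FOXA2 and CEBPA did not pass the test. In the authors' deposited table, 1 of 7 members tested was higher and 3 were lower, beside 7.44% of all genes called higher and 8.06% called lower (15.5% in all). FOXA1 went from a rebuilt 1204 to 626 normalized counts, a log2 change of -0.94 (SE 0.22, adjusted p = 0.000288) in the authors' deposited table. FOXA3, its paralog, went from 335 to 599, a log2 change of 0.84 (SE 0.21, adjusted p = 0.00117) in the authors' deposited table. The forkhead genes thus moved in opposite directions, and FOXA2 had 0.15 (SE 0.15). ONECUT1, at a mean of only 45.7 normalized counts, had -1.88 (SE 0.60, adjusted p = 0.016) in the authors' deposited table. NR1H4 fell to 25.2% of control, -1.99 (SE 0.38, adjusted p = 7.37e-06) in the authors' deposited table. Its rebuilt DMSO level ranged from 10.1 to 15 CPM over the 4 tables of the same libraries, so the size of this change is less certain. HNF4A had -0.13 (SE 0.16) and CEBPA 0.07 (SE 0.21) in the authors' deposited table. NR5A2 had a mean of 9.82 normalized counts and was given no adjusted p in the authors' deposited table. Summed hepatocyte markers went from 14911 to 7237 CPM with MS7126 and biliary or progenitor markers from 1315 to 831, and their part in the members' values was not tested.

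C24 gave another set of calls. HNF4A was higher by 0.46 (SE 0.13, adjusted p = 0.00979) and CEBPA by 0.59 (SE 0.18, adjusted p = 0.0244) in the authors' deposited table, 2 of 6 members tested, beside 3.01% of all genes called higher and 4.01% lower (7.02% in all). No member was called lower, and the forkhead genes FOXA1, FOXA2 and FOXA3 had -0.05, -0.02 and 0.30 in the authors' deposited table. NR1H4 had -0.71 (SE 0.47, adjusted p = 0.446), while ONECUT1 and NR5A2 were given no adjusted p in the authors' deposited table. When p-values were adjusted over every gene with a p, CEBPA missed the threshold at 0.05 and 1 member was called.

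The analogs gave no member calls. With MS7126N1, 0 of 8 members were called in the authors' deposited table, beside 0.0744% of all genes called higher and 0.085% lower (0.159% in all), and 0 members had an unadjusted p under 0.05. With MS7126N2, 0 of 8 members were called in the authors' deposited table, beside 0.362% of genes higher and 0.341% lower (0.703% in all), and 1 member had an unadjusted p under 0.05. In the authors' deposited table for MS7126N1, HNF4A, the FOXA genes, CEBPA and NR1H4 lay between -0.15 (FOXA1) and 0.07 (FOXA3), and ONECUT1 had 0.57 (SE 0.69). The member with an unadjusted p under 0.05 for MS7126N2 was ONECUT1, at -1.25 (SE 0.63, p = 0.0476, adjusted p = 0.991) in the authors' deposited table. No other tool was run on these tables, which hold no values per library.

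The compounds were compared with each other at the same dose and time over 6 pairs. The difference of 2 deposited log2 fold changes was divided by the root of their summed squared SEs, with p-values adjusted over all genes of a pair. FOXA1 was lower with MS7126 than with C24 by a difference of -0.90 (95% interval -1.41 to -0.39, adjusted p = 0.0124). ONECUT1 was lower with MS7126 than with C24 by -2.33 (-3.78 to -0.88, adjusted p = 0.0298). These 2 of 7 members stood beside 6.26% of all genes that differed. HNF4A differed by -0.59 (-0.99 to -0.19) with an adjusted p of 0.0596, and NR1H4 by -1.27 (-2.46 to -0.09) with 0.269. With the covariance from the shared DMSO libraries allowed for, HNF4A (adjusted p = 0.00313) and NR1H4 (0.0473) also passed, so that 4 of 7 members differed beside 13.4% of all genes. HNF4A also passed when only genes averaging 100 or more were tested (adjusted p = 0.0422).

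Against MS7126N1, NR1H4 was lower with MS7126 by -1.90 (-2.97 to -0.82, adjusted p = 0.0166), 1 of 7 members beside 4.4% of genes. Its level in the shared DMSO libraries was rebuilt as 251 normalized counts for MS7126 and 170 for MS7126N1. The treated levels were 63.4 and 159. Part of this NR1H4 difference thus lies in the rebuilt control, and its size and its call are less certain. Against MS7126N2, 0 of 7 members differed, beside 1.86% of genes, and 2 (FOXA1 and NR1H4) had an unadjusted p under 0.05. The FOXA1 differences of MS7126 from the 2 analogs were -0.80 (-1.37 to -0.22) and -0.82 (-1.36 to -0.28), with adjusted p of 0.107 and 0.118. When the same covariance was allowed for, both FOXA1 differences passed, with adjusted p of 0.00412 and 0.00543, beside 10.9% and 5.67% of all genes. FOXA3 (adjusted p = 0.0273) and ONECUT1 (0.00653) then also differed from MS7126N1. In the 3 pairs without MS7126, 0 members differed, beside 0.0977%, 0.181% and 0.454% of genes; at an unadjusted p under 0.05 there were 2 (HNF4A in C24 minus MS7126N1, ONECUT1 in C24 minus MS7126N2). The intervals there were wide for ONECUT1, from -1.72 to 1.48 between C24 and MS7126N1, so a likeness of these compounds was not shown.

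**Figure D2:**
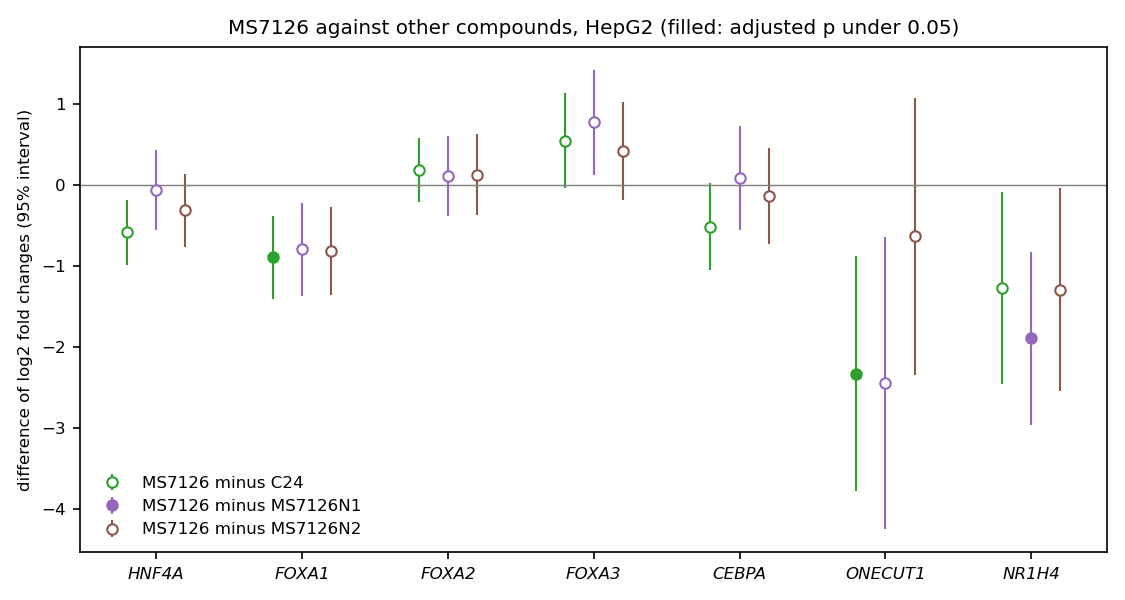
Difference between the log2 fold change with MS7126 and that with C24, MS7126N1 or MS7126N2 in HepG2 for 7 members, with 95% intervals; filled points passed the test. FOXA1 lies between -0.90 and -0.80 against each compound, and FOXA2 between 0.11 and 0.18.

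In Huh7, MS7126 lowered 6 of the 8 members and raised none. In the authors' deposited table this stood beside 16.3% of all genes called lower and 17.5% called higher, 33.9% in all, and 44.7% where the mean count reached 100. The bile acid receptor gene NR1H4 had the lowest log2 fold change of the 8, -1.50 (SE 0.16, adjusted p = 5.91e-20) in the authors' deposited table, which left 35.3% of control. CEBPA had -0.97 (SE 0.10, adjusted p = 2.66e-22) in the authors' deposited table, from a rebuilt 12254 to 6269 normalized counts. NR5A2 had -0.60 (SE 0.23, adjusted p = 0.0352) and FOXA1 -0.54 (SE 0.18, adjusted p = 0.0118) in the authors' deposited table. HNF4A fell to 73.4% of control, -0.45 (SE 0.11, adjusted p = 0.00017) in the authors' deposited table. FOXA3 had -0.40 (SE 0.17, adjusted p = 0.0482) in the authors' deposited table, and an adjusted p of 0.0582 over every gene with a p. FOXA2 had 0.13 (SE 0.12) and ONECUT1 -0.35 (SE 0.22), and neither passed in the authors' deposited table. The summed level of the 8 hepatocyte markers also fell here, from 32613 to 19017 CPM, while biliary or progenitor markers had 1218 and 1181. The latter sum hid opposite moves. KRT19 went from 48.8 to 161 CPM and SOX9 from 150 to 204, while CD24 went from 889 to 690 and SPP1 from 27.3 to 16.6. The part of these cells' markers in the members' values was not tested.

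The response to MS7126 differed between the cell lines for FOXA3 and CEBPA. FOXA3 differed by 1.24 (HepG2 minus Huh7, 95% interval 0.71 to 1.77, adjusted p = 0.000282), being higher in HepG2 and lower in Huh7. CEBPA differed by 1.04 (0.59 to 1.48, adjusted p = 0.000353). These 2 of 7 members stood beside 7.54% of all genes that differed. FOXA1 differed by -0.41 (-0.96 to 0.15) and NR1H4 by -0.48 (-1.30 to 0.33), with adjusted p of 0.478 and 0.607. Cell line and the labelled time of treatment cannot be told apart here.

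In Huh7 with the EZH2 hairpin, 5 members fell and 2 rose, with HNF4A not passing. Beside these, edgeR called 19.5% of all genes higher and 19.3% lower, 38.7% in all, and 47.1% where the mean count reached 100. HNF4A was at 3912 and 3999 normalized counts in the controls and 3827 and 3925 in shEZH2. These ranges overlapped, with a log2 change of -0.03 (SE 0.03, edgeR adjusted p = 0.463). The libraries of the 2 groups did not overlap for the other 7 members, which was so for 68.6% of all genes. Summed hepatocyte markers went from 31808 to 24369 CPM in this comparison and fibroblast or stellate markers from 32.7 to 98.8, most of it COL1A2 (5.83 to 49.5), with DCN and COL1A1 not listed. Their part in the members' values was not tested.

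The forkhead genes split again, in another order than with MS7126 in HepG2. FOXA1 was 1119 and 1175 in the controls and 1341 and 1378 in shEZH2, a log2 change of 0.25 (SE 0.04, edgeR adjusted p = 0.000297). FOXA2 was 1105 and 1125 in the controls and 970 and 910 in shEZH2, or -0.25 (SE 0.05, edgeR adjusted p = 0.000683). FOXA3 was 808 and 736 in the controls and 465 and 461 in shEZH2, or -0.74 (SE 0.06, edgeR adjusted p = 1.27e-07). Both shEZH2 libraries lay above both controls for FOXA1 and below them for FOXA2 and FOXA3.

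CEBPA was 5967 and 5570 in the controls and 4508 and 4928 in shEZH2, or -0.29 (SE 0.04, edgeR adjusted p = 1.65e-05). In the authors' deposited table its SE was wider, at 0.08, and 2.08 times the median of genes at its level. The edgeR SE was worked back from the F statistic, so the 2 SEs are unlike measures. ONECUT1 was 264 and 260 in the controls and 176 and 141 in shEZH2, or -0.73 (SE 0.11, edgeR adjusted p = 5.63e-05). The 2 shEZH2 libraries of ONECUT1 lay further apart than its controls.

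Of the nuclear receptor genes, NR1H4 was 1868 and 1948 in the controls and 1262 and 1306 in shEZH2, or -0.57 (SE 0.04, edgeR adjusted p = 1.42e-08). NR5A2, whose printed window held the forkhead letters, was 851 and 847 in the controls and 1076 and 1005 in shEZH2, or 0.29 (SE 0.05, edgeR adjusted p = 0.000228). NR1H4 thus fell while NR5A2 rose. The median over the 8 members was -0.27, beside 0.00 over all genes tested.

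**Figure D3:**
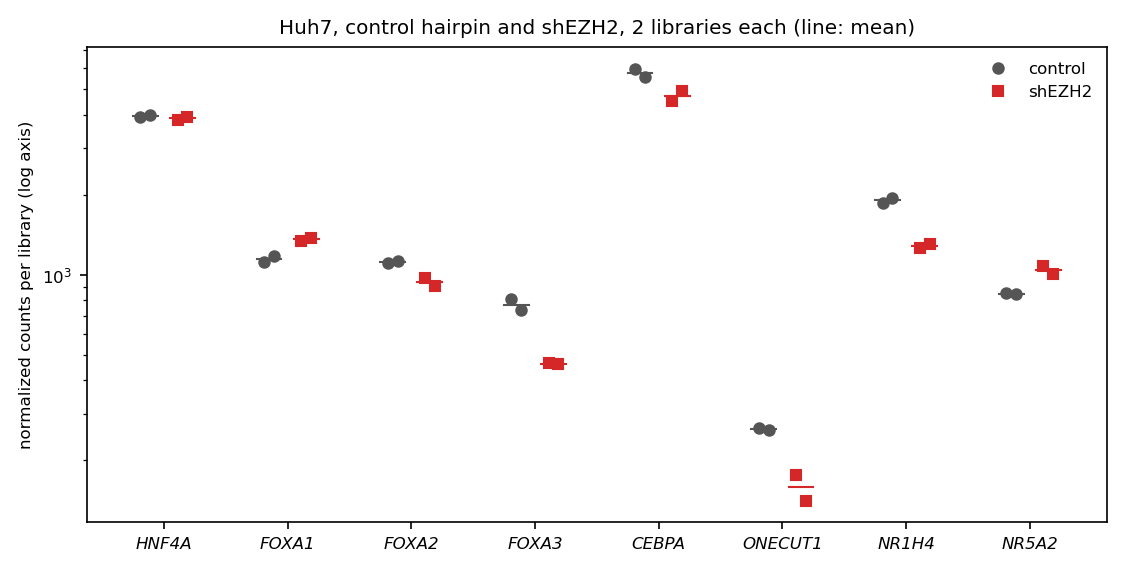
Normalized counts of each member in the 2 control and 2 shEZH2 libraries of Huh7, on a log axis, with lines at the means. HNF4A overlaps between groups (3827 to 3999), while NR1H4 lies at 1868 and 1948 in the controls and 1262 and 1306 in shEZH2.

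Within Huh7, the compound and the hairpin were compared after their values had been seen, with deposited values for both. Of 8 members, 6 differed between MS7126 and shEZH2, beside 34.2% of all genes. NR1H4 was lower with MS7126 by a difference of -0.93 (95% interval -1.26 to -0.60, adjusted p = 4.68e-07) and NR5A2 by -0.89 (-1.37 to -0.40, adjusted p = 0.00177). FOXA1 differed by -0.78 (-1.16 to -0.40, adjusted p = 0.000369), CEBPA by -0.68 (-0.92 to -0.43, adjusted p = 5.51e-07) and HNF4A by -0.42 (-0.64 to -0.19, adjusted p = 0.0014). FOXA2 differed the other way, by 0.38 (0.10 to 0.66, adjusted p = 0.0251). FOXA3, with 0.34 (-0.04 to 0.72), and ONECUT1, with 0.38 (-0.15 to 0.92), did not pass. The 2 experiments have separate controls, and the time after infection is not given for the hairpin.

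The HepG2 hairpin groups had FOXA1 lower and FOXA2 higher in each of the 4 deposited tables. FOXA1 had -0.92 (SE 0.07) in the libraries labelled shEZH2 in the authors' deposited table. It had -0.38 (SE 0.05) in #664, -0.78 (SE 0.11) in #665 and -0.82 (SE 0.11) in #667 in the authors' deposited table of each. FOXA2 had 0.24 (SE 0.06) in the libraries labelled shEZH2 and 0.31, 0.27 and 0.28 in #664, #665 and #667 in the authors' deposited table of each. The 4 tables share their 2 control libraries, so these are not 4 separate observations of a change.

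By table, the libraries labelled shEZH2 had 2 members higher and 3 lower in the authors' deposited table, beside 28.4% and 28.6% of all genes (57% in all). #664 had 4 higher and 2 lower in the authors' deposited table, beside 24.9% and 26.8% (51.7% in all). #665 had 2 higher and 2 lower in the authors' deposited table, beside 18.7% and 20% (38.8% in all). #667 had 1 higher and 3 lower in the authors' deposited table, beside 18.6% and 19.3% (37.8% in all). Where the mean count reached 100, the shares of all genes called were 70.5% in the libraries labelled shEZH2 and 65.6% in #664. In #665 and #667 they were 49.2% and 46.1%. The share of members called was near this background in all 4 and is no result about the members as a set.

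ONECUT1 was higher in 3 of these tables, with 1.14 (SE 0.22, adjusted p = 1.09e-06) in the libraries labelled shEZH2 in the authors' deposited table. It had 1.76 (SE 0.16, adjusted p = 2.29e-26) in #664, where it went from a rebuilt 155 to 527 normalized counts, and 0.81 (SE 0.24, adjusted p = 0.00303) in #665 in the authors' deposited table of each. In #667 it had 0.44 (SE 0.27, adjusted p = 0.192) in the authors' deposited table. HNF4A had 0.28 (SE 0.04, adjusted p = 1.1e-10) in #664 and -0.25 (SE 0.11, adjusted p = 0.051) in #667 in the authors' deposited table of each. NR1H4 had 0.87 (SE 0.09, adjusted p = 3.24e-20) in #664 and -0.39 (SE 0.17, adjusted p = 0.0594) in #667 in the authors' deposited table of each. FOXA3 was lower in the libraries labelled shEZH2, with -0.30 (SE 0.11, adjusted p = 0.0162, and 0.118 after centring on the median gene), and in #667, with -0.43 (SE 0.14, adjusted p = 0.00817), in the authors' deposited table of each. NR5A2 had means of 18.5 to 28.8 normalized counts and SEs of 0.60 to 0.72 in the authors' deposited table of these 4, and passed in none.

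The 3 hairpins against SREBF2 did not give 1 pattern. Between #664 and #665, 5 of 8 members differed, beside 12.7% of all genes, and between #664 and #667 also 5, beside 9.87%. In both pairs these were HNF4A, FOXA1, CEBPA, ONECUT1 and NR1H4. FOXA3 was higher in #664 than in #667 by 0.45 (0.13 to 0.77) with an adjusted p of 0.0592; it passed with the covariance of shared controls (0.0119, beside 14.6% of all genes) and over genes averaging 100 or more (0.0459). NR1H4 was higher in #664 than in #665 by a difference of 0.79 (95% interval 0.44 to 1.13, adjusted p = 0.000198) and than in #667 by 1.26 (0.88 to 1.65, adjusted p = 7.18e-09). ONECUT1 was higher in #664 by 0.95 (0.39 to 1.52) and 1.32 (0.71 to 1.94). Between #665 and #667, 0 of 8 members differed, beside 6.28% of genes. At an unadjusted p under 0.05 there was 1, NR1H4 at 0.48 (0.03 to 0.92). It passed once the covariance of shared controls was allowed for (normal test on the fitted values, adjusted p = 0.0371), when 16.3% of all genes differed, so 1 of 8 members is no more than the background.

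CEBPA had the lowest log2 fold change of the members in the libraries labelled shEZH2, -1.78 (SE 0.08, adjusted p = 9.3e-114) in the authors' deposited table. It had -0.14 (SE 0.05, adjusted p = 0.0188, and 0.21 after centring) in #664, -1.04 (SE 0.14, adjusted p = 1.74e-12) in #665 and -0.74 (SE 0.13, adjusted p = 6.4e-08) in #667 in the authors' deposited table of each. These 4 tables also list AC008738.3, a transcript on the opposite strand that shares 659 exon bases, or 25%, with CEBPA (GENCODE 29). The strand setting of the counting is not given in the sources used here, so reads of the shared bases cannot be told apart.

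AC008738.3 was higher in all 4, at 0.84 (SE 0.07) in the libraries labelled shEZH2, 1.74 (SE 0.05) in #664, 0.86 (SE 0.13) in #665 and 0.97 (SE 0.14) in #667 in the authors' deposited table of each. It was looked up after the CEBPA values had been seen. In the libraries labelled shEZH2, CEBPA went from a rebuilt 3488 to 1019 normalized counts and AC008738.3 from 1517 to 2719. Their sum had a log2 change of -0.42 there. In #664 the sum had 0.72, the reverse of CEBPA alone, in #665 it had -0.17, and in #667 it had 0.02. The fall of CEBPA in these tables is therefore a statement about the reads assigned to CEBPA, not about all reads at the locus. The 4 compound tables and both Huh7 tables do not list AC008738.3, and they name the divergent transcript CEBPA-AS1 where the HepG2 hairpin tables name it CEBPA-DT. CEBPA levels are thus not on 1 annotation across the series.

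**Figure D4:**
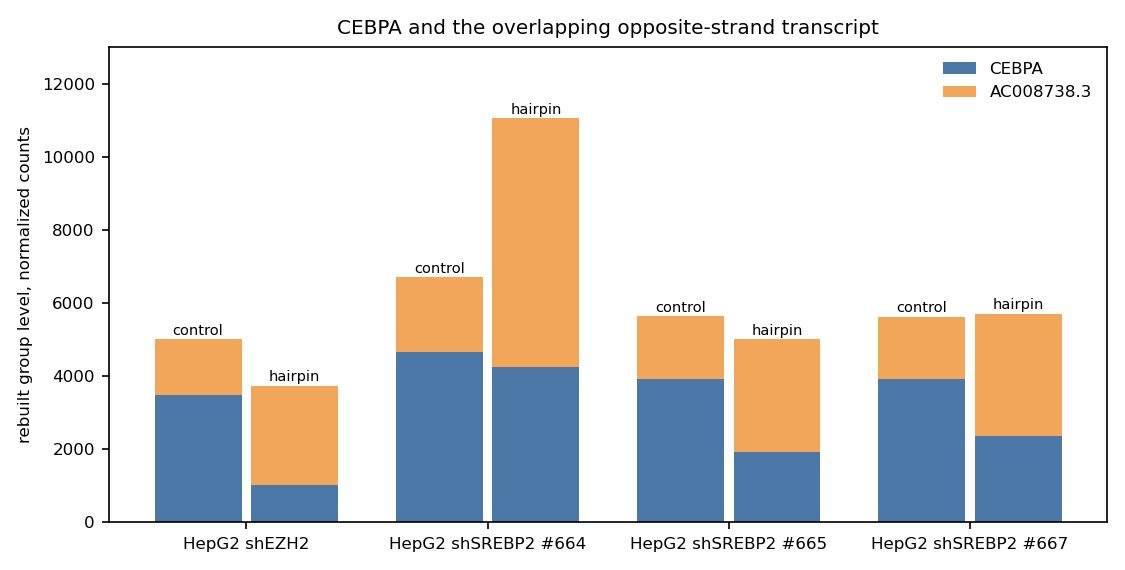
Rebuilt group levels, in normalized counts, of CEBPA (lower part of each bar) and AC008738.3 (upper part) in the control and hairpin libraries of the 4 HepG2 hairpin tables. The CEBPA part is smaller in each hairpin bar, while the AC008738.3 part is larger, and the whole bar rises most in #664.

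The libraries labelled shEZH2 were also compared between the cell lines, after the values had been seen. Of 8 members, 6 differed (HepG2 minus Huh7), beside 53.7% of all genes. FOXA1, at -1.17 (95% interval -1.36 to -0.98, adjusted p = 1.07e-32), and FOXA2, at 0.49 (0.31 to 0.68, adjusted p = 1.05e-06), each had opposite signs in the 2 lines. ONECUT1 differed by 1.87 (1.32 to 2.42, adjusted p = 1.75e-10), being higher in HepG2 and lower in Huh7. CEBPA differed by -1.48, NR1H4 by 0.71 and FOXA3 by 0.44. The group mean of EZH2 was higher in these HepG2 libraries and lower in the Huh7 ones. The 2 contrasts thus do not share a measured loss of EZH2 RNA in the group mean.

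**Figure D5:**
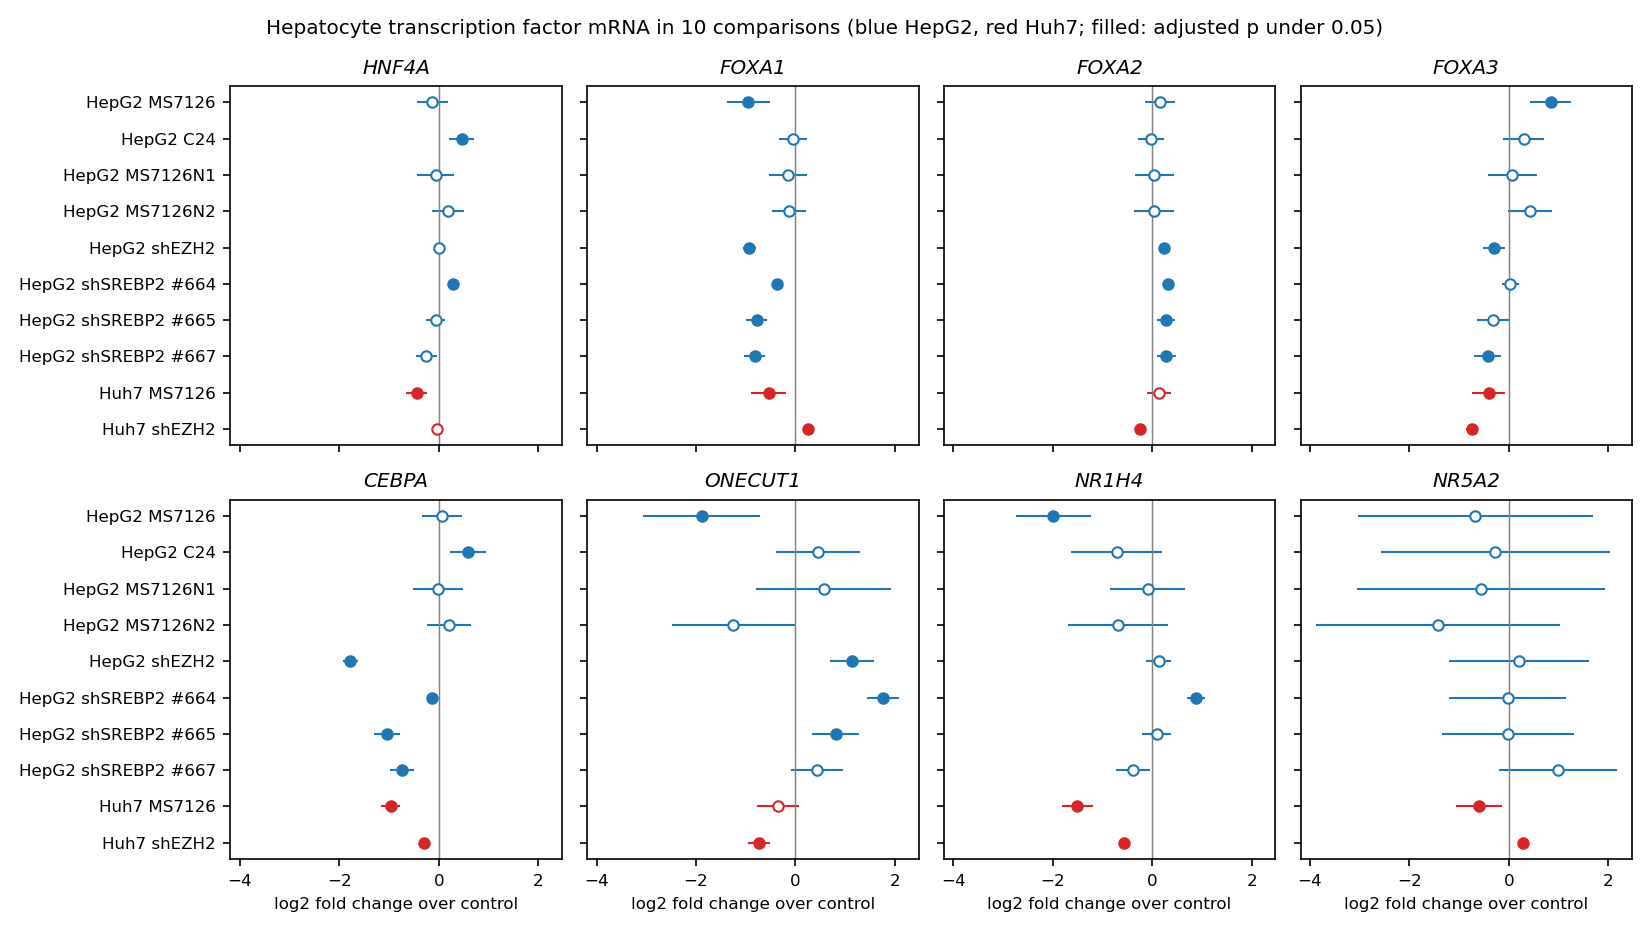
Log2 fold change over control of each member in the 10 comparisons, with 95% intervals; blue is HepG2, red is Huh7, and filled points had an adjusted p under 0.05. FOXA1 is lower in 6 of the comparisons and higher in Huh7 shEZH2, and NR5A2 has wide intervals in every HepG2 comparison.

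Other liver transcription factors were counted in the same way. In HepG2 MS7126, 3 of 25 tested were higher and 4 lower in the authors' deposited table, beside 7.44% and 8.06% of all genes. CEBPB, which encodes C/EBP beta, had 1.54 (SE 0.15) and CREB3L3, an activator of triglyceride metabolism genes, -1.71 (SE 0.29) in the authors' deposited table. With C24, 0 of 20 were higher and 1 lower (3.01% and 4.01% of all genes), with MS7126N1 0 of 26 were called (0.159%), and with MS7126N2 1 of 25 was higher and 0 lower (0.362% and 0.341%), in the authors' deposited table of each. In Huh7 MS7126, 4 of 25 were higher and 8 lower, beside 17.5% and 16.3% of all genes, with GATA4 at -1.23 (SE 0.13) and RXRA, the partner of FXR, at -0.72 (SE 0.11), as the authors' deposited table gives them. In Huh7 shEZH2, edgeR called 8 of 25 higher and 10 lower, beside 19.5% and 19.3% of all genes, with RXRA at -1.12 (SE 0.04), GATA4 at -0.55 (SE 0.04) and ONECUT2, the paralog of ONECUT1, at 0.73 (SE 0.04). For the libraries labelled shEZH2, #664, #665 and #667, 10, 15, 8 and 9 of 26 were higher and 7, 8, 5 and 7 lower in the authors' deposited table of each, beside 28.4%, 24.9%, 18.7% and 18.6% of all genes higher and 28.6%, 26.8%, 20% and 19.3% lower. ONECUT2 had 1.92, 1.09, 1.17 and 1.51 in the libraries labelled shEZH2, #664, #665 and #667 in the authors' deposited table of each. LINC00261, the long noncoding RNA beside FOXA2, had -1.09 (SE 0.30) in HepG2 MS7126 and -1.03 (SE 0.16) in Huh7 MS7126 in the authors' deposited table of each, where FOXA2 did not pass. It had -0.78 (SE 0.04) in Huh7 shEZH2, where FOXA2 fell too.

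Genes described elsewhere as targets of the members did not follow 1 direction; the shares of all genes called are those just given for each comparison. Of genes given as HNF4A targets, 1 of 14 tested was higher and 9 lower in HepG2 MS7126 in the authors' deposited table. This stood beside 7.44% of all genes called higher and 8.06% called lower. The median over all 17 listed targets, some of them given no adjusted p, was -0.96. Among the targets called lower, APOA1 had -1.87 (SE 0.12) and APOC3 -2.11 (SE 0.17), both apolipoprotein genes, in the authors' deposited table. In Huh7 MS7126, 0 of 14 were higher and 7 lower in the authors' deposited table, beside 17.5% and 16.3% of all genes. In the libraries labelled shEZH2 in HepG2, 13 of 17 were higher and 3 lower, beside 28.4% and 28.6% of all genes, and APOC3 had 2.09 (SE 0.04), in the authors' deposited table. HNF4A itself had 0.01 (SE 0.06) in the authors' deposited table. The summed hepatocyte markers went from 26955 to 49303 CPM and biliary or progenitor markers from 1452 to 838 there. Most of the hepatocyte rise was ALB (5567 to 14454) and APOA1 (6151 to 18126), while SERPINA1 (3903 to 3574) and TF (2508 to 2209) were lower. Among the biliary or progenitor markers, SOX9 had 252 and 253. The part of these markers in the counts of targets was not tested. In #664, #665 and #667, 13, 8 and 12 of 17 were higher and 2, 5 and 4 lower in the authors' deposited table of each. In Huh7 shEZH2, edgeR called 4 of 14 higher and 5 lower, beside 19.5% and 19.3% of all genes, with APOA2 at -1.33 (SE 0.04) and MTTP, the lipid transfer protein gene, at 0.78 (SE 0.03).

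Of genes given as FOXA or C/EBP alpha targets, 5 of 9 were lower and 2 higher in HepG2 MS7126 in the authors' deposited table. IGFBP1, an insulin-repressed binding protein gene, had 4.59 (SE 0.20) and HP, which encodes haptoglobin, -3.62 (SE 0.16) in the authors' deposited table. In Huh7 MS7126, 7 of 9 were lower and 1 higher, again IGFBP1, at 4.28 (SE 0.44) in the authors' deposited table. Of genes given as FXR or LRH-1 targets, 1 of 8 was higher and 3 lower in HepG2 MS7126 in the authors' deposited table. The libraries labelled shEZH2, #664, #665 and #667 had 7 of 12, 8 of 13, 3 of 12 and 6 of 13 higher and 3, 2, 4 and 2 lower in the authors' deposited table of each. Of the same list, 6 of 12 were lower and 0 higher in Huh7 MS7126 in the authors' deposited table, with KNG1, the kininogen gene, at -1.38 (SE 0.20). In Huh7 shEZH2, edgeR called 2 of 12 FXR or LRH-1 targets higher and 5 lower, and 2 of 8 FOXA or C/EBP alpha targets higher and 3 lower. NR0B2, which encodes the FXR-induced repressor SHP, had 0.86 (SE 0.10, edgeR adjusted p = 3.93e-06) there while NR1H4 fell. In the libraries labelled shEZH2, #664, #665 and #667, FOXA or C/EBP alpha targets were higher for 9, 8, 1 and 8 of 11 and lower for 1, 1, 4 and 2 in the authors' deposited table of each. With C24, 3 of 13 HNF4A targets were higher and 0 lower in the authors' deposited table, as were 2 of 8 FOXA or C/EBP alpha targets, with 1 lower, while 0 of 5 FXR or LRH-1 targets were called. With MS7126N1 0 genes of these lists were called, and with MS7126N2 1 FXR or LRH-1 target of 11 (lower) and 0 of the other targets, in the authors' deposited table of each. These lists overlap, were taken from general knowledge with earlier results of these data known, and are given as counts with no test of the list.

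The genes whose log2 fold changes over the 10 comparisons were most like a member's were read from 7765 genes whose mean reached 100 in every table. HNF4A was most like CYP27A1, the mitochondrial sterol 27-hydroxylase gene, with a Pearson r of 0.94. NR1H4 was most like CTSV (r = 0.97), CEBPA like MRPS16 (0.98), FOXA1 like CBX1 (0.95) and FOXA2 like RNMT (0.95). FOXA3 was most like CHKA (0.94), ONECUT1 like CCDC69 (0.95) and NR5A2 like PITPNC1 (0.89). The 10 points share control libraries and each gene was the highest of 7765, so these values are a description.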

How the data were processed

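The 28 HepG2 and Huh7 RNA libraries form 14 groups of 2. STAR 2.4.2, Salmon and GRCh38 are named in the submitters' processing notes, with no further settings. Each deposited table gives, per its header, the mean of normalized counts (a signal over all its libraries), a log2 fold change with its SE, a score (the change over its SE) and raw and adjusted p-values, in DESeq2's layout. For Huh7 shEZH2 the deposited columns include estimated counts in every library. Members and gene lists were chosen with earlier results of these data known.

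Those counts, rounded, were tested in edgeR 4.0.16 (R 4.3.3; quasi-likelihood, TMM, filterByExpr) on 14581 genes; 20 of 15228 rows whose symbols had turned into dates were left out. That test returns no SE, so the SE printed with edgeR values is the size of the log2 change over the root of the F statistic. Libraries within a group differed by more than counting noise (chi-square over its degrees of freedom, 1.63 and 1.54). The common biological coefficient of variation, their spread beyond that noise as a share of the mean, was only 0.0187. Differences between comparisons used a two-sided normal test on deposited values, Benjamini-Hochberg adjusted over genes with a mean of at least 10 in both tables; 10 were planned and 2 added. Shared controls were ignored in the variance unless stated. Where they were allowed for, the smaller squared SE was taken off the summed variance of every gene, which is an assumed and not an estimated covariance. Both tests were tested on simulated data. Control levels were rebuilt from mean and change. Besides members, up to 4 called genes of each list by adjusted p and the nearest genes by Pearson r were named; other genes were chosen after their values were seen. Alternatives included DESeq2 1.42.0, RLE factors, no filter, a replicate block, leaving out each library, other adjustments and centring.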

Additional observations from a re-analysis of the deposited data

Results flagged for a closer look

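Effects under the same label differed between HepG2 and Huh7 by the test of the difference itself for 8 values, though neither pair is known to be the same treatment. With MS7126, FOXA3 differed by 1.24 and CEBPA by 1.04 on the log2 scale (HepG2 minus Huh7), with adjusted p of 0.000282 and 0.000353. In the libraries labelled shEZH2, FOXA1 differed by -1.17, FOXA2 by 0.49, FOXA3 by 0.44, CEBPA by -1.48, ONECUT1 by 1.87 and NR1H4 by 0.71, with the highest adjusted p at 0.00873 for FOXA3. Labelled time differed between the MS7126 experiments, and the group mean of EZH2 RNA was not lower in the HepG2 libraries labelled shEZH2. CEBPA shares exon bases with AC008738.3, which only the HepG2 hairpin tables of the 10 list. The part of each in these differences was not tested.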

How the results depend on the processing

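Of 80 values that answer a comparison, 75 kept their side of the threshold or stayed within 1.5 times under the alternatives run, as did 1006 of 1034 single-gene values. Members called with C24 went from 2 to 1 when p-values were adjusted over every gene. With the covariance of shared controls allowed for, members differing went from 2 to 4 (MS7126 minus C24), from 1 to 4 (MS7126 minus MS7126N1), from 0 to 1 (MS7126 minus MS7126N2) and from 0 to 1 (#665 minus #667). By construction that variance is smaller, and all genes differing rose as well, from 898 to 1927, 631 to 1564, 266 to 811 and 987 to 2563. Reversed signs after centring were NR5A2 in #664 (0.0372) and #665 (0.0519), HNF4A in #665 (0.0087), FOXA1 in MS7126N1 minus MS7126N2 (0.0047) and FOXA2 in #665 minus #667 (0.0109), none of them called. CEBPA summed with AC008738.3, chosen after seeing the data, reversed in #664 (0.7218) and #667 (0.0195). Centring also took CEBPA in #664 (adjusted p = 0.21) and FOXA3 in the libraries labelled shEZH2 (adjusted p = 0.118) out of the calls; the median gene of the latter table stood at -0.10.

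In Huh7 shEZH2, the 7 called members were called under every alternative run. Leaving out each library in turn gave 7 to 7 members called and medians of -0.288 to -0.2528; the lone library is then assumed to vary like the others. With the replicate number as a block, 7 members were called, the median was -0.27 and 5427 genes were called against 5649. The numbers were not taken to pair the libraries, since only 2 pairs exist and their deviations correlated at -0.0339. DESeq2 called 3424 genes and the authors' deposited values 3423. No paired analysis was possible because the other tables carry no values per library. At means under 30 normalized counts, SEs of NR5A2 in HepG2 were 0.60 to 1.27, so only large changes could be detected.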

Other observations

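Hairpins and MS7126 went with opposite values for CREB3L3, a liver factor listed with the HNF4A targets. In HepG2 it had -1.71 (SE 0.29) with MS7126 and 2.58, 2.31, 0.93 and 1.37 in the libraries labelled shEZH2, #664, #665 and #667 in the authors' deposited table of each. In Huh7 it had -1.17 (SE 0.20) with MS7126 in the authors' deposited table and 0.51 (SE 0.07) with shEZH2 by edgeR. It was singled out after its values were seen, and these differences were not tested.

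CEBPB had 1.54 (SE 0.15) with MS7126 and 0.71 (SE 0.17, adjusted p = 0.00468) with MS7126N2 in HepG2, and 0.13 (SE 0.13) with C24 and 0.00 (SE 0.15) with MS7126N1, in the authors' deposited table of each. In the 4 HepG2 hairpin tables it was lower, from -0.48 to -0.38, in the authors' deposited table of each.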
